A study of Mus musculus with 12 samples.

Results

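The genes of 10 muscle RNA-binding and splicing factors were followed across 12 RNA-seq libraries. They were chosen by name, with earlier results of these data known. They are 10 of the 37287 gene IDs in each of the deposited count tables: Rbm24, Rbm38 and Rbm20, the muscleblind genes Mbnl1, Mbnl2 and Mbnl3, the CELF genes Celf1 and Celf2, and the RBFOX genes Rbfox1 and Rbfox2. All libraries came from mouse embryonic fibroblasts of genotype MyoD-/-; Myf5-/-, and both muscle-determining transcription factors are thus labelled null in the control cells too. Transduced cells received lentivirus with polybrene at 8 µg/ml for 24 h, then differentiation medium for 20 h, and no label says whether the untransduced cells received polybrene. The first table held 5 GFP libraries (a multiplicity of infection, MOI, of 15, 30, 60 and 120, and a 1x dose), MyoD at 1x and 2x, Myf5 at 1x and 2x, and 1 untransduced library labelled NV. The second table held 1 library with 1x of a virus labelled Chimera and 1 with 1x MyoD virus of a second batch, balanced against the Chimera. The sources used here do not say what the Chimera is made of, which promoter drives each virus or how 1x relates to the MOI series. No label says that a dose was repeated in a separate culture, so p-values measure the spread between these libraries, in which dose is included.

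Library totals, in M (mega) counts, were 17.9 to 22.4 for the MOI series. They were 68.3 to 81.5 for the other 6 libraries deposited with it, 25.1 for Chimera and 23.7 for second-batch MyoD. All 12 fibroblast markers examined were above 1 CPM (counts for each M of library total) in every library. Their sum ran from 25534 to 28695 CPM with GFP, 18553 and 22032 with Myf5, and 13249 and 18262 with MyoD. The sum of 10 skeletal muscle markers was 2.69 to 4.76 CPM with GFP, 25.7 and 106 with Myf5 and 703 and 2289 with MyoD. The sum of 8 heart markers was 4.54 to 10.1 CPM with GFP, 4.33 and 4.42 with Myf5 and 5.05 and 5.14 with MyoD, most of it Tnni3 and Gata4. Nkx2-5 had no count in 11 of the 12 libraries and Myh6 stayed at or under 0.239 CPM. The neuronal genes Snap25, Elavl3 and Rbfox3 stayed at or under 0.0845 CPM, while the sum of all 10 neuronal markers was 18.1 to 38.6 CPM with GFP and 46.7 to 55.3 with MyoD or Myf5. The part of this sum in the members' values was not tested. Myod1 was at 309 and 617 CPM in the MyoD libraries and 324 CPM in second-batch MyoD, and Myf5 at 149.5 and 249 CPM in the Myf5 libraries. Although the cells are labelled null, both genes had reads without their virus, with Myod1 at 5.21 to 5.99 CPM in the GFP, Myf5 and untransduced libraries and Myf5 at 11.9 to 24.4 CPM in the GFP, MyoD and untransduced libraries. The source of these reads cannot be read from counts per gene. In these bulk libraries a larger share of converted cells and more RNA per cell cannot be told apart.

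RNA-binding factors of these families set how muscle transcripts are spliced, stabilised and translated. MBNL proteins promote adult splice patterns and are sequestered by repeat RNA in myotonic dystrophy, while CELF proteins act on many of the same exons in the opposite sense. RBFOX proteins bind a GCATG element beside alternative exons, and Rbfox1 is enriched in neurons, heart and skeletal muscle while Rbfox2 is widely expressed. Rbm24 is a splicing and stability factor of heart and skeletal muscle, its paralog Rbm38 stabilises transcripts during muscle differentiation, and Rbm20 is best known for splicing titin in the heart. Counts per gene report the abundance of each factor's transcript and do not show splicing.

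MyoD and Myf5 bind E-boxes, DNA elements of the form CANNTG. Because Rbm24 and Mbnl3 were at opposite ends of the response, the sequence upstream of each is shown from RefSeq on GRCm38.p6, written 5′ to 3′ on the strand of the gene, with E-boxes in capitals. The counts were aligned to mm9, so these coordinates are not those of the counted genes. The Rbm24 stretch is at chr13:46418050-46418101 on the plus strand, the part of the 250 bases before the annotated start that lies outside annotated exons. The Mbnl3 stretch is at chrX:51205991-51206240 on the minus strand, all 250 bases before its start.
Rbm24: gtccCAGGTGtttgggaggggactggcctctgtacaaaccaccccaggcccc
Mbnl3: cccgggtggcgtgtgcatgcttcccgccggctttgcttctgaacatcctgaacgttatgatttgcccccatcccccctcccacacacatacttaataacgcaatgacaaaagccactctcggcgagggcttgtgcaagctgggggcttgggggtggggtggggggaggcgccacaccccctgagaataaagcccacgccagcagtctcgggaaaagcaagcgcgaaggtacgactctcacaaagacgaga

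Both strands of the 250 bases were searched for CANNTG, for its forms CAGCTG and CAGGTG, and for the MEF2 element. RefSeq windows matched 8 of the 10 genes in 14 windows, with none matched for Rbm20 and Rbfox2. Rbm24 held CAGGTG 246 bases and CAACTG 183 bases before the start. Only the CAGGTG lies in the stretch shown above, and the CAACTG lies past its end. No E-box was in the window of Rbm38, Celf1, Mbnl2 or Mbnl3, and E-boxes were in windows of Celf2, Mbnl1 and Rbfox1, including CAGCTG 72 bases before the start in 1 Rbfox1 window. CANNTG occurred in 7 of the 14 windows, against 66.2% of 32851 promoters of the same length. The 7 windows belong to Rbm24, Celf2, Mbnl1 and Rbfox1, and overlapping Celf2 windows counted the same CACTTG and CAAGTG separately. The windows with E-boxes of Mbnl1 and Rbfox1, and most of those of Celf2, lie wholly within annotated exons or the span of the gene. CAGGTG occurred in 1 window against 17.2% of promoters, CAGCTG in 1 against 13.0%, and the MEF2 element in 0 against 2.92%.

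MyoD against GFP asks which of these transcripts change when MyoD is restored. Rbm24, Rbm38, Celf2, Rbfox2 and Celf1 rose with MyoD, and Mbnl2 and Mbnl3 fell. Mbnl1 and Rbm20 were not called, and Rbfox1 was too low to test. Thus 5 of 9 tested members were higher and 2 were lower by edgeR's quasi-likelihood test (adjusted p under 0.05 over 13825 genes), against 21.4% of all genes called higher and 20.9% called lower. The median log2 fold change of the 9 was 0.49, and that of all genes was -0.025. Rbm24 reached the count filter only through libraries with MyoD or Myf5, and the other 8 reached it in the GFP libraries alone.

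**Figure D1:**
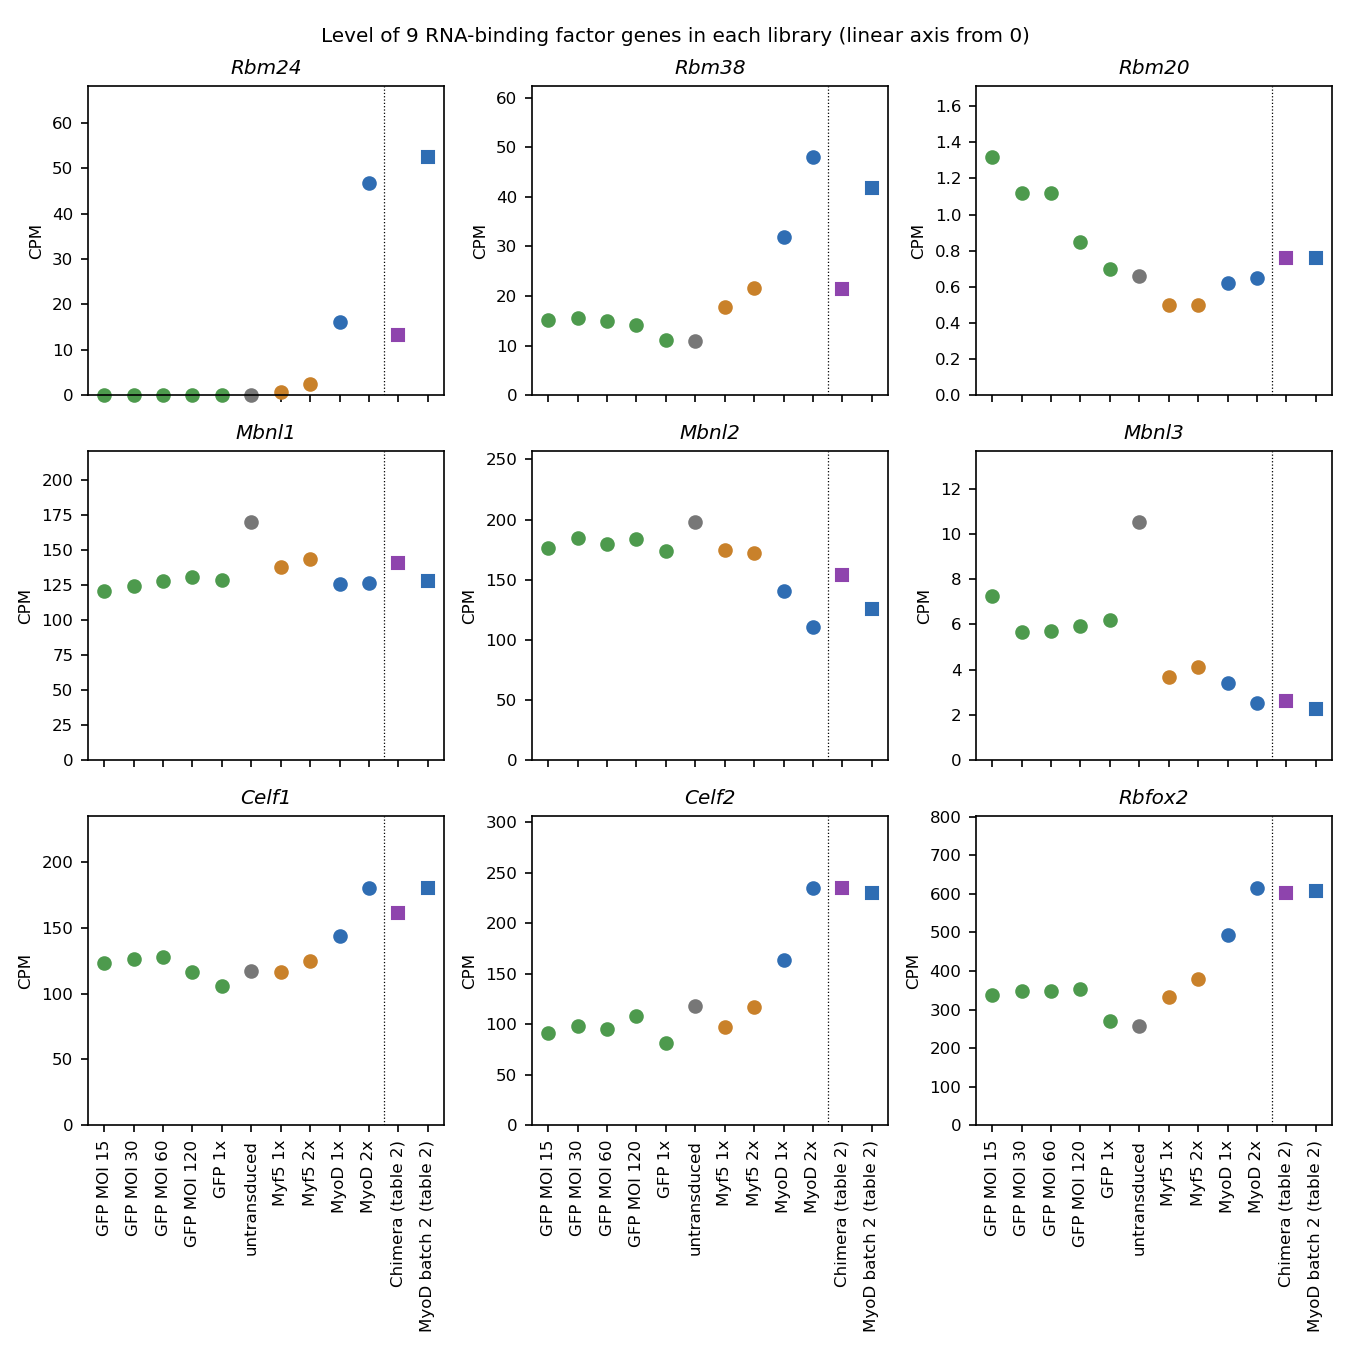
CPM (vertical, linear from 0) of 9 members in each of the 12 libraries (horizontal), 1 point per library, with squares for the second table. Rbm24 reached 46.7 CPM in 2x MyoD and was at or under 0.0491 CPM in the GFP libraries, and Mbnl1 lay between 121 and 144 CPM except for 169.7 CPM in the untransduced library.

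Rbm24 (ENSMUSG00000038132.5) was nearly absent from the fibroblasts. It had no count in the 4 MOI libraries or the untransduced library and 4 counts, 0.0491 CPM, in 1x GFP. The limit that a count of 0 allows, 3 counts, corresponds to 0.134 to 0.168 CPM in the MOI libraries and 0.0413 CPM in the untransduced one. Myf5 brought it to 0.703 CPM at 1x (48 counts) and 2.53 CPM at 2x (173 counts), and MyoD to 16.1 and 46.7 CPM (1299 and 3588 counts). The groups of MyoD, Myf5 and GFP libraries did not overlap, and every MyoD library stood above every Myf5 library, as for 29.9% of genes tested. The MyoD libraries stood above all GFP libraries for 23.2% of genes tested and the Myf5 libraries for 15%. The log2 fold change was 10.26 ± 0.78 (SE, adjusted p = 6.9e-05) for MyoD and 5.95 ± 0.96 (adjusted p = 0.0116) for Myf5. Because these rest on the 4 counts in 1x GFP, the ratio of the 2 libraries at the same dose is the plainer measure. 1x MyoD over 1x GFP gave 328.5 (95% counting interval 128 to 1207.5), and 1x Myf5 over 1x GFP gave 14.3 (5.24 to 54.7). These and later intervals cover counting error only. Without the 1x GFP library the fitted value for MyoD was 13.65, which depends on the prior count where the controls hold no count at all. For Myf5 the call ended when 1x GFP alone was the control (4.96, adjusted p = 0.233) and without the 2x Myf5 library (4.74, adjusted p = 0.135).

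Rbm38 (ENSMUSG00000027510.10), the paralog of Rbm24 and a p53 target, was already present in the fibroblasts. Its level was 15.1, 15.5, 15.0 and 14.2 CPM along the MOI series, 11.2 in 1x GFP and 11.0 in the untransduced library. With Myf5 it was 17.9 and 21.5 CPM and with MyoD 32.0 and 48.0 CPM at 1x and 2x. The groups again did not overlap, so that GFP was lowest, Myf5 between and MyoD highest. For Myf5, 15% of genes tested stood above all GFP libraries in the same way, and for MyoD 23.2%. Against a GFP mean of 14.2 ± 1.77 CPM (SD, n = 5), the log2 fold change was 1.56 ± 0.17 (adjusted p = 0.000262) for MyoD. For Myf5 it was 0.51 ± 0.17 and not called (adjusted p = 0.0996). Part of the Rbm38 exons lies opposite the exons of Gm14453 (7.91%) and Gm20490 (5.47%), and no source used here says whether the counting used strand.

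Rbm20 (ENSMUSG00000043639.7), the titin splicing factor of the heart, stayed near 1 CPM or below in every library. It ran from 0.699 CPM in 1x GFP to 1.32 at MOI 15, and stood at 0.498 and 0.496 CPM with Myf5, 0.620 and 0.651 with MyoD and 0.660 without virus. The MyoD and Myf5 values lay below all GFP values, as for 28.2% of genes tested with MyoD and 16.6% with Myf5. The values of 1x GFP and the untransduced library were close to them. The log2 fold changes of -0.59 ± 0.27 for MyoD (adjusted p = 0.109) and -0.97 ± 0.28 for Myf5 (adjusted p = 0.075) were not called. Against the 4 MOI libraries both were called (-0.73, adjusted p = 0.0211, and -1.10, adjusted p = 0.00761), and against 1x GFP alone they were -0.13 and -0.50 and not called.

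Of the muscleblind genes, Mbnl2 and Mbnl3 fell with MyoD and Mbnl1 was not called. Mbnl2 (ENSMUSG00000022139.9), a splicing regulator prominent in brain and muscle, was at 176, 185, 180.0 and 184 CPM along the MOI series, 174 in 1x GFP and 198 in the untransduced library. Myf5 left 174 and 173 CPM and MyoD 141 and 111 CPM. The Myf5 libraries lay within or just below the GFP values. Both MyoD libraries lay below all GFP values, as for 28.2% of genes tested. The log2 fold change was -0.46 ± 0.08 for MyoD (adjusted p = 0.00246) and -0.02 for Myf5 (adjusted p = 0.89).

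Mbnl3 (ENSMUSG00000036109.9), a member of the family expressed in dividing myoblasts and described as an inhibitor of muscle differentiation, was the lowest of the family. It stood at 7.24, 5.65, 5.72 and 5.93 CPM along the MOI series, 6.21 in 1x GFP and 10.5 in the untransduced library. With Myf5 it was 3.69 and 4.12 CPM and with MyoD 3.43 and 2.53 CPM. All 4 libraries with a muscle factor lay below all 5 GFP libraries, a pattern that 28.2% of genes tested showed for MyoD and 16.6% for Myf5. The log2 fold change was -0.999 ± 0.159 (adjusted p = 0.00171) for MyoD. For Myf5 it was -0.63 ± 0.16 at an adjusted p of 0.0499, and this call was kept in 4 of 15 alternatives (adjusted p from 0.00532 to 0.344). It ended, for instance, without the 1x Myf5 library (-0.55, adjusted p = 0.209), without the 2x Myf5 library (-0.71, adjusted p = 0.344) or against 1x GFP alone (-0.68, adjusted p = 0.15).

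Mbnl1 (ENSMUSG00000027763.7), the main muscleblind of adult skeletal muscle, was at 121, 125, 128 and 131 CPM along the MOI series and 129 in 1x GFP. Myf5 gave 138 and 144 CPM and MyoD 126 and 127 CPM. The MyoD values fell among the GFP values and the Myf5 values just above them, a pattern that 15% of genes tested showed for Myf5. The log2 fold changes were 0.05 ± 0.06 for MyoD (adjusted p = 0.522) and 0.18 ± 0.06 for Myf5 (adjusted p = 0.088), neither called, and the MyoD value was -0.016 against 1x GFP alone.

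The CELF genes rose together with MyoD, Celf2 more than Celf1. Celf2 (ENSMUSG00000002107.9), a splicing and translation regulator abundant in brain, heart and muscle, was at 91.1, 98.1, 95.2 and 108 CPM along the MOI series, 81.5 in 1x GFP and 118 in the untransduced library. Myf5 gave 97.5 and 117 CPM and MyoD 164 and 235 CPM. The MyoD libraries were apart from all others of that table, and the Myf5 libraries overlapped the GFP and untransduced values. For 23.2% of genes tested the MyoD libraries stood above all GFP libraries. The log2 fold change was 1.13 ± 0.14 for MyoD (adjusted p = 0.000602) and 0.21 for Myf5 (adjusted p = 0.375). Gm26565 lies opposite 7.58% of the Celf2 exons.

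Celf1 (ENSMUSG00000005506.9), also called CUGBP1, promotes decay of transcripts with GU-rich elements and is raised in myotonic dystrophy. It was at 123, 126, 128 and 117 CPM along the MOI series, 106 in 1x GFP and 117.5 untransduced. Myf5 gave 117 and 124 CPM and MyoD 143 and 179.8 CPM, so the MyoD libraries again stood above all GFP libraries, as for 23.2% of genes tested. The log2 fold change was 0.49 ± 0.10 for MyoD (adjusted p = 0.00465) and 0.04 for Myf5 (adjusted p = 0.812). Without the 2x MyoD library the Celf1 value was 0.30 and not called (adjusted p = 0.0691).

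Rbfox2 (ENSMUSG00000033565.9) was the most abundant member and rose with MyoD. Its level was 337, 347, 348 and 354 CPM along the MOI series, 271 in 1x GFP and 258 in the untransduced library. Myf5 gave 332 and 379 CPM and MyoD 494 and 616 CPM. Both MyoD libraries exceeded every GFP library, as for 23.2% of genes tested. Of the Myf5 libraries the 1x one lay within the GFP range and the 2x one above it. The log2 fold change was 0.80 ± 0.11 for MyoD (adjusted p = 0.00103) and 0.13 for Myf5 (adjusted p = 0.47). Against 1x GFP alone, the lowest of the 5, they were 1.04 (adjusted p = 0.00342) and 0.38 (adjusted p = 0.217).

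Rbfox1 (ENSMUSG00000008658.8), the RBFOX gene of differentiated muscle and neurons, was close to the limit of detection throughout. It had no count in the 4 MOI libraries, the untransduced library or the second table, 8 counts in 1x GFP, 5 and 7 with Myf5 and 8 and 11 with MyoD. The highest level was 0.143 CPM in 2x MyoD, so no difference was detectable at this depth.

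**Figure D2:**
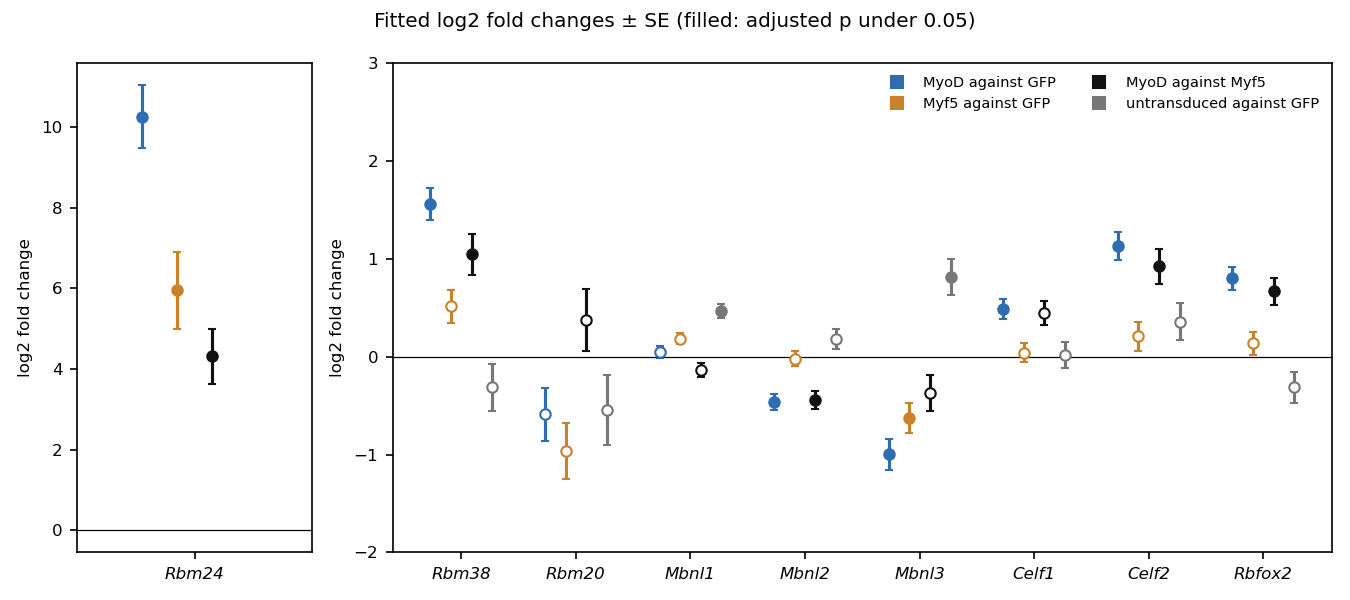
Fitted log2 fold changes ± SE (vertical) of Rbm24 (left, own axis) and 8 other members (right) in 4 comparisons, filled where the adjusted p was under 0.05. Rbm24 for the untransduced library is left out because it had no count there. With MyoD, Rbm38 reached 1.56 and Mbnl3 was at -0.999, and the Myf5 values lay nearer 0 for each of those genes.

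With Myf5 only Rbm24 was called higher and only Mbnl3 lower among the 9 tested members (edgeR, against all 5 GFP libraries). Over all genes 3.81% were called higher and 2.29% lower, so in each direction the count is a single gene set against that background. The call of Rbm24 could only be higher, since it reached the filter only through libraries with MyoD or Myf5. With 1x GFP alone as the control no member was called in either direction, where 1.03% and 0.152% of genes were. With the 4 MOI libraries as the control 2 members were called in each direction, where 18.8% and 17.9% of genes were. MyoD and Myf5 were compared with the same GFP libraries, so their fold changes are not independent of each other.

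The factors were therefore compared with each other directly. Rbm24 (log2 fold change 4.31 ± 0.67, adjusted p = 0.0229), Rbm38 (1.04 ± 0.21, 0.0311), Celf2 (0.92 ± 0.18, 0.0291) and Rbfox2 (0.67 ± 0.14, 0.0357) were higher with MyoD than with Myf5, and Mbnl2 (-0.44 ± 0.09, 0.0349) was lower. These were 4 and 1 of 9 members, against 4.21% of genes called higher and 1.29% called lower. Rbm24 is counted here although it reached the filter only through libraries with MyoD or Myf5, where it was high. Celf1 (0.45 ± 0.12, adjusted p = 0.0642), Mbnl3 (-0.37 ± 0.18, 0.24), Mbnl1 (-0.13, 0.273) and Rbm20 (0.37, 0.498) were not called. All of these calls ended when the 2x MyoD library, the 1x Myf5 library or the 2x Myf5 library was left out, although each of the 5 genes kept its direction. At equal dose, Rbm24 was 22.9-fold (95% counting interval 17.2 to 31.3) higher in 1x MyoD than in 1x Myf5 and 18.5-fold (15.9 to 21.7) higher at 2x.

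Several members stood higher at 2x than at 1x of either factor, and none passed the test. The CPM of Rbm24 at 2x was 2.90 times that at 1x with MyoD (2.72 to 3.09) and 3.59 times with Myf5 (2.60 to 5.06). The ratios for Rbm38 were 1.50 and 1.21, for Celf2 1.43 and 1.20, for Celf1 1.25 and 1.07, and for Rbfox2 1.25 and 1.14. Mbnl2 was at 0.786 of its 1x level with MyoD and 0.989 with Myf5, and Mbnl3 at 0.737 and 1.12. Mbnl1 and Rbm20 had ratios from 0.997 to 1.05. In the common fit over both factors no member was called by edgeR, where 0.0217% of all genes were called higher and 0% lower. An unadjusted edgeR p under 0.05 was found for 5 of 9 tested members and for 1528 of 13825 genes. DESeq2 called 1 member, Rbm24, and its share of calls over all genes is not given here. Along the GFP series from MOI 15 to 120 no member of the 8 tested was called either, where 4.06% of genes were called higher and 3.42% lower. An unadjusted edgeR p under 0.05 was found there for 2 of the 8 members and for 2679 of 13383 genes. DESeq2 called none in that series. Celf2 came nearest at 0.07 ± 0.02 log2 per doubling of MOI (adjusted p = 0.0514).

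The untransduced library asks what the control transduction changes, in which virus and polybrene cannot be told apart. Mbnl1 was at 169.7 CPM there against 127 ± 3.94 CPM with GFP (SD, n = 5), and Mbnl3 at 10.5 against 6.15 ± 0.647 CPM. Both were above all 5 GFP libraries, with log2 fold changes of 0.47 ± 0.07 (adjusted p = 0.00682) and 0.81 ± 0.18 (adjusted p = 0.03). Mbnl2 and Celf2 were also above all 5 GFP libraries, and Rbm38, Rbm20 and Rbfox2 below them, without being called. With 1 untransduced library such separation is common among the members, and its share over all genes was not counted. Mbnl1 and Mbnl3 were thus 2 of 9 members called higher and none was called lower, against 5.83% and 2.52% of genes. Against 1x GFP alone Mbnl1 was still called (0.40, adjusted p = 0.031) and Mbnl3 was not (0.76, adjusted p = 0.11), with 3.37% of genes called higher and 1.57% lower. Interferon-stimulated genes differed between the libraries being compared, with a sum over 10 genes of 187 CPM untransduced, 185 CPM in 1x GFP and 1035 to 2880 CPM along the MOI series. The sum was 545 and 1882 CPM with Myf5 and 208 and 168 CPM with MyoD. The part of this response in the members' values was not tested.

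The Chimera was set beside MyoD of the second virus batch, with 1 library each and so no test. Rbm24 stood at 13.2 CPM (331 counts) with the Chimera and 52.5 CPM (1242 counts) with MyoD, a ratio of 0.252 (95% counting interval 0.222 to 0.284). Rbm38 stood at 21.5 and 41.8 CPM, a ratio of 0.514 (0.462 to 0.571). Both values were lower with the Chimera, as was that of the muscle transcription factor gene Myog, at 300 and 705 CPM. The Chimera library held 22.1 CPM of Myod1 and 165 CPM of Myf5, above the levels of these genes in libraries without their virus and, for Myf5, above 1x Myf5. Marker sums differed as well, at 827 CPM with the Chimera and 2084 with MyoD for skeletal muscle, 24423 and 19402 for fibroblasts and 1468 and 869 for interferon-stimulated genes, and their part in the members' ratios was not tested. Celf2 was at 235 and 230.2 CPM (ratio 1.02, 0.983 to 1.06) and Rbfox2 at 601 and 606 CPM (0.992, 0.969 to 1.01). Their levels with the Chimera were therefore within counting error of those with MyoD. Celf1 had a ratio of 0.895 (0.857 to 0.934), Mbnl1 1.10 (1.05 to 1.16) and Mbnl2 1.22 (1.16 to 1.28), small differences beyond counting error, and Mbnl3 1.15 (0.793 to 1.68). Rbm20 had 19 and 18 counts, too few for the comparison. Of the 8 members with at least 50 counts, 1 was at least 2-fold lower with the Chimera and none at least 2-fold higher, against 2.32% and 2.68% of 13412 genes. No replicate shows how much 2 libraries of one virus would differ.

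**Figure D3:**
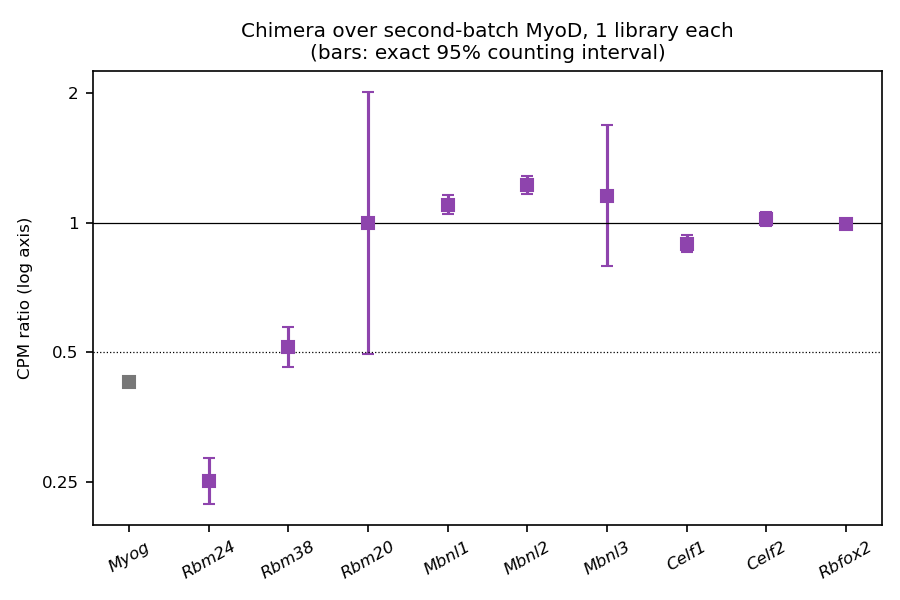
Ratio of CPM in the Chimera library over the second-batch MyoD library (vertical, log axis) for Myog and 9 members, with exact 95% counting intervals. Rbm24 at 0.252, Myog at 0.426 and Rbm38 at 0.514 lie below the line of equal levels with intervals that do not overlap one another, while Celf2 at 1.02 and Rbfox2 at 0.992 lie on the line of equal levels.

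Levels set across the tables are descriptive, since the tables were made separately, and here mitochondrial genes were left out of the totals of the second table. On that scale Celf2 in the Chimera library was 2.51 times its level in 1x Myf5 (counting interval 2.42 to 2.60), Rbfox2 1.89 times, Celf1 1.44 times and Rbm38 1.25 times. Rbm24 was 19.6 times higher (14.4 to 27.1). Mbnl2 was at 0.919 and Mbnl3 at 0.743 of the 1x Myf5 level. Second-batch MyoD at 1x itself exceeded the earlier 1x MyoD library 3.40 times for Rbm24, 1.47 times for Celf2, 1.36 times for Rbm38 and 1.28 times for Rbfox2. In these gaps between MyoD libraries of the same labelled dose, virus batch and table cannot be told apart.

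Ratios between members of a library need no scaling between libraries. Celf2 over Mbnl2, a pair with opposed effects on many exons, was 0.470 to 0.589 in the GFP libraries, 0.595 without virus and 0.559 and 0.676 with Myf5. It was 1.16 and 2.12 with MyoD, 1.53 with the Chimera and 1.83 with second-batch MyoD. The ratio was thus higher in every library with MyoD or the Chimera than in the others. Celf2 was already called higher and Mbnl2 lower with MyoD, so for the first table this separation restates those calls and is no further result. The share of other gene pairs with such a separation was not counted. As CPM is not corrected for gene length, the ratio does not show which transcript was the more abundant. In CPM per kb of exon, Celf2 was below Mbnl2 in 1x MyoD (6.34 against 11.8), with the Chimera (9.46 against 13.4) and in second-batch MyoD (9.28 against 11.0). In 2x MyoD the values of 9.09 and 9.24 were too close to be ordered. These values rest on exon lengths over all annotated transcripts, 25884 bases for Celf2 and 11993 for Mbnl2. Mbnl1 over Mbnl2 was 0.674 to 0.740 with GFP, 0.859 without virus, 0.790 and 0.832 with Myf5 and 0.893 and 1.14 with MyoD, so the other groups too lay above the GFP range. Celf2 over Celf1 was 0.742 to 0.927 with GFP, 1.00 without virus, 0.836 and 0.939 with Myf5, 1.14 and 1.31 with MyoD and 1.46 with the Chimera. Rbm24 per 100 Myog counts was 5.96 and 6.12 with MyoD, 11.9 and 8.60 with Myf5, 4.39 with the Chimera and 7.44 with second-batch MyoD. That ratio was lowest with the Chimera and highest in 1x Myf5 among the 6 libraries with MyoD, Myf5 or the Chimera.

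**Figure D4:**
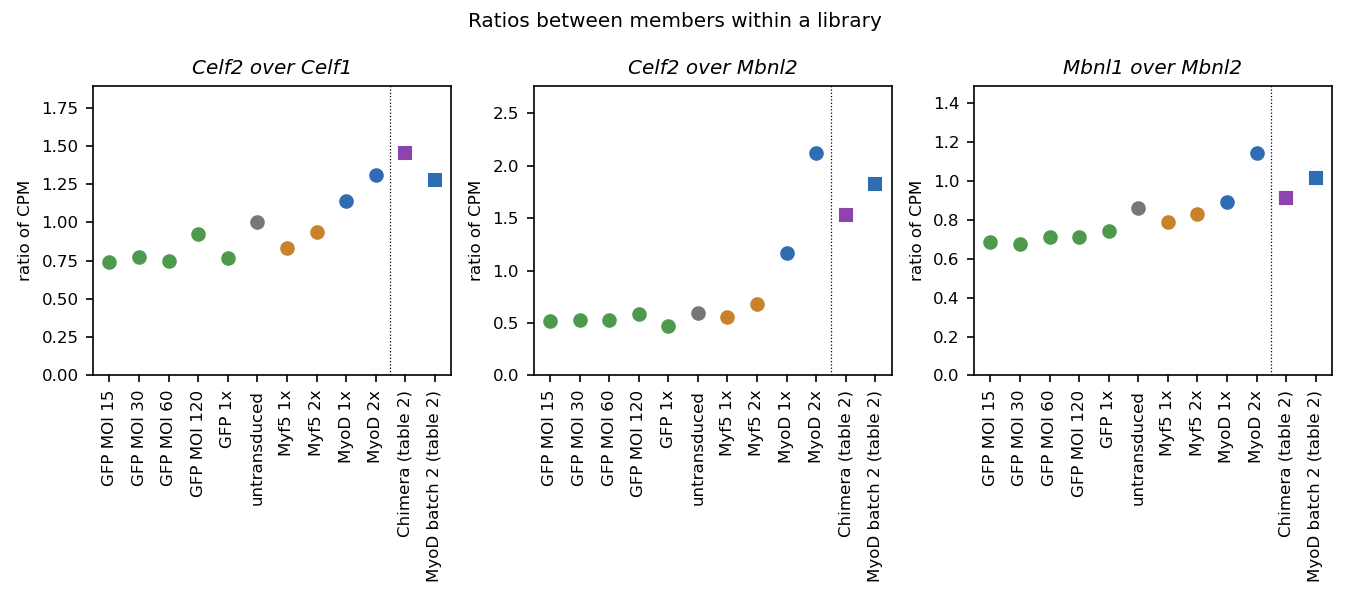
Ratios of CPM between members within a library (vertical, linear from 0) for the 12 libraries (horizontal), with squares for the second table. Celf2 over Mbnl2 was at most 0.676 in GFP, untransduced and Myf5 libraries and at least 1.16 in the 3 MyoD libraries and the Chimera. In this pair Celf2 was already called higher and Mbnl2 lower with MyoD.

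Per kb of annotated exon, the order of levels also changed. In 1x GFP, Rbfox2 was highest at 33.3 CPM per kb, followed by Mbnl2 (14.5), Celf1 (12.5), Mbnl1 (6.87), Rbm38 (3.89), Celf2 (3.15) and Mbnl3 (0.71). Rbm20, Rbfox1 and Rbm24 were at 0.103, 0.0223 and 0.0141. In 2x MyoD, Rbfox2 stood at 75.7 CPM per kb, Celf1 at 21.3, Rbm38 at 16.7, Rbm24 at 13.4, Mbnl2 at 9.24, Celf2 at 9.09 and Mbnl1 at 6.78. Rbm24 thus went from among the lowest of the 10 members to the fourth place. In 1x GFP it had 4 counts and Rbfox1 had 8, too few to order these genes. Mbnl2 and Celf2 in 2x MyoD were too close to be ordered. Exon lengths were taken over all annotated transcripts of a gene, so genes with many isoforms have long denominators.

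Of 123 tested genes in wider lists of RNA-binding and splicing factors, 29 were higher and 20 lower with MyoD (median log2 fold change 0.04), against 21.4% and 20.9% of all genes. By list, 9 of 27 core spliceosome genes were higher and none lower (list median 0.15), led by Prpf19 (0.52), a ubiquitin ligase of the spliceosome, and Prpf31 (0.35). Of 31 mRNA stability and translation genes 11 rose and 6 fell (median 0.08). These included the translation regulators Cpeb3, at 4.02 to 5.26 CPM with GFP and 12.3 and 24.5 with MyoD (2.01 ± 0.22), and Fxr1, a muscle-enriched relative of the fragile X protein, at 104 to 115 CPM with GFP and 182 and 243 with MyoD (1.01 ± 0.11). In the list of other tissue-regulated splicing factors 5 of 23 rose and 5 fell (median -0.094), with Msi2 at 0.97 and the neuronal factor Nova1 at -0.74. Of 23 hnRNP and PTB genes 3 rose and 4 fell (median 0.027), with Hnrnpab at 0.64 and Ptbp1, a repressor of many muscle and neuronal exons, at -0.42. In the SR protein list 1 of 19 rose and 5 fell (median -0.062). The median of all genes was -0.025.

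Many of these counts depended on the control. Against 1x GFP alone the higher and lower counts were 2 and 0 for the core spliceosome, 8 and 3 for stability and translation, 4 and 4 for other splicing factors, 2 and 1 for hnRNP and PTB genes and 1 and 1 for SR genes. Background in that comparison was 15.1% higher and 15.4% lower. With dose as a block, against all GFP libraries, the same counts were 1 and 0, 5 and 2, 4 and 2, 3 and 3 and 1 and 1, with 13.7% of all genes called higher and 11.6% lower. The block was a term for the 2x libraries of MyoD and Myf5 alone. Against GFP it therefore compared the fitted 1x level of a factor, not the mean of its libraries. The SR kinases Clk1 (-0.93) and Clk4 (-0.70) were at -0.073 and -0.011 against 1x GFP, and neither was called. Clk1 stood at 125 to 147 CPM along the MOI series but at 65.8 in 1x GFP, 56.5 untransduced, 68.9 and 64.8 with Myf5 and 62.7 and 61.8 with MyoD. The low group for Clk1 thus included the 1x GFP and untransduced libraries. Hnrnph3 (-0.43), Sf1 (0.48), Celf5 (-0.60), Zfp36l1 (-0.46), Igf2bp2 (-0.35) and Prpf31 were likewise not called against 1x GFP, at -0.087, 0.11, -0.12, -0.17, -0.24 and 0.21. Cpeb3 (1.82), Fxr1 (0.98), Msi2 (1.32), Nova1 (-1.16), Prpf19 (0.52), Hnrnpab (0.42), Syncrip (0.38, and 0.28 against all GFP) and Ptbp1 (-0.52) were.

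**Figure D5:**
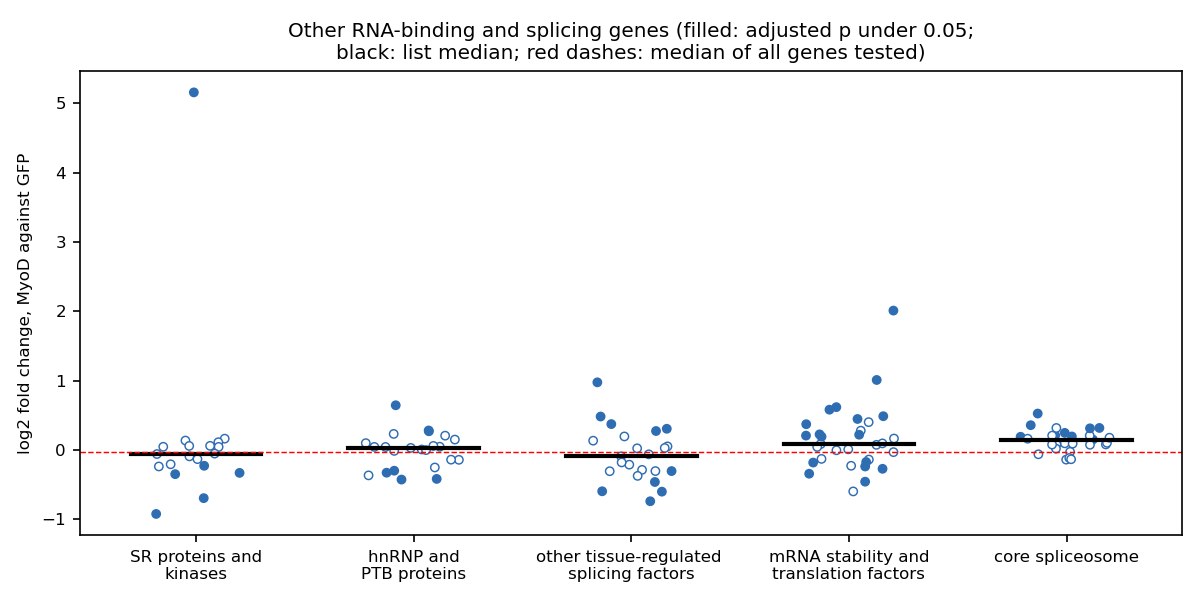
Log2 fold changes of MyoD against all 5 GFP libraries (vertical) for 123 tested genes of 5 lists (horizontal), 1 point per gene, filled where the adjusted p was under 0.05, with the list median in black and the median of all genes as red dashes. Most genes lie between -1 and 1, and Srpk3 at 5.16 and Cpeb3 at 2.01 lie above.

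The 1 SR gene that rose was Srpk3, a muscle-specific SR protein kinase and a target of MEF2, singled out after its values were seen because its mean level lay under the limit for naming. It reached the filter of 1 CPM only through the 2 MyoD libraries, where it was high, so that its call had to go in that direction. It had 0 to 11 counts in the 5 GFP libraries, 3 untransduced, 5 and 9 with Myf5 and 134 and 345 with MyoD, or 1.66 and 4.49 CPM. Its log2 fold change was 5.16 ± 0.61 against GFP (adjusted p = 0.000443) and 4.91 against Myf5 (adjusted p = 0.0229). The latter call ended without either Myf5 library (4.58, adjusted p = 0.198, and 5.38, adjusted p = 0.0979).

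With Myf5, Fmr1 (0.50) was higher and Srsf7 (-0.47), Hnrnph3 (-0.57) and Taf15 (-0.39) lower among 123 tested, beside 3.81% and 2.29% of all genes. None of these 4 calls held with dose as a block, where 1.41% and 0.246% of all genes were called, and against 1x GFP alone Fmr1 was called (0.75) and the other 3 were not. In the direct comparison 4 of 123 were higher with MyoD than with Myf5 and 1 lower, beside 4.21% and 1.29% of all genes. The 4 were Msi2 (0.87, edgeR adjusted p = 0.0491), Fxr1 (0.62, 0.0377), Prpf19 (0.44, 0.0459) and Srpk3. Rbm47, also singled out after its values were seen, was lower (-1.12) at 0.683 and 0.651 CPM with MyoD against 1.29 and 1.66 with Myf5, and it reached the filter only through the Myf5 and untransduced libraries, where it was high. In the untransduced library 22 of 123 were higher and 1 lower, beside 5.83% and 2.52% of all genes, among them 8 of 23 hnRNP and PTB genes and 8 of 27 core spliceosome genes. Examples were Hnrnpab (0.59), Hnrnpd (0.57), Snrpd1 (0.64) and Snrpb (0.51), and Cpeb1 was lower (-0.48). Against 1x GFP alone 5 hnRNP and PTB genes and 4 core spliceosome genes were higher.

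Over the 10 libraries of the first table, the genes whose log2(CPM + 0.5) was most like that of a member were read off by Pearson correlation among 13341 genes. For Rbm24 these were Klhl40 (0.999), a stabiliser of sarcomere proteins, Btbd17 (0.999) and Unc45b (0.998), the myosin chaperone. For Rbm38 they were Sorcs2 (0.998), Ctif (0.994) and Amacr (0.994), and for Celf2 Usp31 (0.984), Ubac1 (0.981) and Stard13 (0.980). These libraries share cells, medium and controls, and the values for Rbm24 turn on the 4 libraries with a muscle factor.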

How the data were processed

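Poly(A) RNA of 12 mouse embryonic fibroblast libraries was sequenced on an Illumina instrument, per the labels' protocols. Per the submitters' processing notes, CASAVA 1.8.2 and TopHat2 2.0.8 were used with mm9. Not given in the sources used here are the read counter, its annotation and its strand setting. Per the file headers and values, the first deposited table holds expected counts, not whole for 1982 to 2767 genes in a library, which were rounded to whole numbers. The second deposited table holds raw counts.

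In R 4.3.3, edgeR 4.0.16 (TMM, genes reaching 1 CPM in 2 libraries or more) fitted the 4 groups of the first table together, so that groups of 1 library are assumed to vary like the others. The quasi-likelihood test was two-sided, with Benjamini-Hochberg adjustment over all 13825 genes (13383 for the MOI trend) and a threshold of 0.05. The libraries of the second table were set side by side as CPM ratios with exact 95% binomial intervals. DESeq2 1.42.0, other filters, size factors, controls, a block on dose and leaving out each library were the alternatives. Scripts were tested on simulated data. Libraries of a group differed beyond sampling noise.

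The members and the wider lists were chosen with earlier results of these data known. Of each list, the 2 called genes with the largest rise and fall at a mean CPM of at least 5 were named. Likeness was read for called members with an absolute log2 fold change of at least 1 for MyoD against GFP, with a pseudocount of 0.5. Of the lists, Rbm4 and Snrpn matched no symbol. Symbols came from a table of names, which paired 32610 of 37287 IDs. Exon lengths came from the GENCODE vM21 annotation and promoter sequences from RefSeq, both on GRCm38.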

Additional observations from a re-analysis of the deposited data

Results flagged for a closer look

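Among the 5 GFP libraries, Rbfox2 had 1 library far from the others, 1x GFP at 271 CPM, below 337 to 354 CPM in the MOI libraries and near the 258 CPM of the untransduced library. Chance flags about 1 in 20 groups, and 10 members were examined. Rbm24 at 0.0491 CPM and Rbfox1 at 0.0981 CPM in 1x GFP also stood apart, with no count in the 4 MOI libraries. The limit that a count of 0 allows in each of those libraries, 0.134 to 0.168 CPM, lies above both values. For these genes 1x GFP thus showed no measured difference from any single MOI library. A limit for the pooled counts of the 4 MOI libraries was not computed, so a difference from the pool was not tested.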

How the results depend on the processing

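For MyoD against GFP, 4 to 5 members were higher and 2 to 3 lower under every alternative run, and Mbnl1, uncalled, was at -0.016 with 1x GFP as the control. For Myf5 against GFP the members higher were 3 by DESeq2, 0 against 1x GFP, 2 against the 4 MOI libraries, 0 when the filter had to be met in GFP libraries, and 0 to 2 when a library was left out. Those lower were 0 without a filter, 0 with a CPM of at least 5, 0 against 1x GFP, 2 against the 4 MOI libraries, 0 with the GFP filter, 0 with the dose block, and 0 to 2 when a library was left out. Uncalled Myf5 values changed sign: Mbnl2 was at 0.0026 without a filter, Celf1 ran from -0.012 to 0.082 when a library was left out, and with the replicate block on dose Mbnl2 was at 0.062, Celf1 at -0.075, Celf2 at -0.0023 and Rbfox2 at -0.0064. The block joins the 2x libraries of MyoD and Myf5, which no label says share a culture. Against GFP it gives the fitted 1x level of a factor, a different quantity from the main fit. The block also added Celf1 to the members higher with MyoD than with Myf5 (0.44, adjusted p = 0.027). It ended the call of Mbnl3 as lower with Myf5 than with GFP (-0.57). For MyoD against Myf5, leaving out a library gave 0 to 5 members higher and 0 to 1 lower. For the untransduced library 1 member was higher against 1x GFP, 1 to 2 when a library was left out, and 1 was lower against the 4 MOI libraries (Rbfox2). Celf1 there was at -0.015 against the MOI libraries and from -0.013 to 0.036 when a library was left out. For dose, DESeq2 called 1 member higher, and Mbnl3 ran from -0.40 to 0.17 when a library was left out. For the MOI trend 1 member was higher without a filter, 1 with a CPM of at least 5 and 0 to 1 when a library was left out (Celf2). When a library was left out, the uncalled slopes of Mbnl2 ran from -0.0026 to 0.022, of Mbnl3 from -0.17 to 0.037 and of Celf1 from -0.055 to 0.028. The cause of these changes was not tested. Depth limits Rbm24 and Rbfox1 in the controls and Rbm20 in all libraries.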
